A study of Mus musculus with 6 samples.

Results

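EP3A features strongly enriched in the immunoprecipitated (IP) fraction of control mouse sperm RNA were followed onto arrays from cadmium-exposed males. EP3A is the largest probe series of the array, named for the start of its identifiers. The set was selected on measured values. A feature entered when its IP channel was well above background on all 3 control arrays and its control mean log2 IP over supernatant ratio, with each array's median set to 0, was at least 2, a 4-fold excess over the array median. The rule took 1373 of 48057 EP3A features (2.86%), out of 60691 features in all. They were 9.61% of the 14291 EP3A features whose IP channel was detected (well above background) on all 3 control arrays.

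The animals were male C57BL/6 mice. Controls drank plain water, and the cadmium (Cd) group drank water with 100 mg/L CdCl2 for 10 weeks, starting at an age of 5 weeks. Sperm of both groups were harvested at 15 weeks, and each group holds 3 arrays that the labels call biological replicates. On every array the IP RNA of a sample carried the red dye Cy5 and its supernatant (Sup) RNA the green dye Cy3. Which molecule the antibody recognised is not stated in the labels. No exchange of dyes is described, so an IP-side ratio and a red-side dye preference cannot be told apart, on 1 array or over all of them. The scan records place all control arrays in 1 scan and all Cd arrays in another, and the effect of a scan and of the treatment cannot be told apart either. The sample label, sperm, was not checked against marker genes, because EP3A features are unnamed in the files used. Sequences, genome positions and transcripts of these features were not analysed here, and each feature is called by its identifier.

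Mature sperm are nearly silent in transcription and carry a mixture of coding and noncoding RNA left from spermatogenesis or gained in the epididymis. In an immunoprecipitation of RNA, an antibody pulls down the molecules that bear its target, and the supernatant keeps the rest. An RNA with a high IP over supernatant ratio is one of which a large part was pulled down, relative to the other RNAs on the same array. Cadmium is a metal toxicant of the testis and of sperm.

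The selected features stayed on the IP side in Cd sperm. Their median log2 ratio was 2.31, 2.34 and 2.37 on the Cd arrays, against 2.47, 2.73 and 2.46 on the control arrays that chose them. The Cd medians varied little (mean 2.34, SD 0.03, n = 3) and lay below the control medians (mean 2.55, SD 0.15, n = 3). For all IP-detected EP3A features the mean of the array medians was 0.30 (SD 0.03, n = 3) in control and 0.27 (SD 0.04, n = 3) in Cd sperm. The lower and upper quartiles of the selected features on the Cd arrays, 1.86 to 1.95 and 2.79 to 2.89, lay above every upper quartile of all IP-detected EP3A features there, 1.06 to 1.13.

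**Figure D1:**
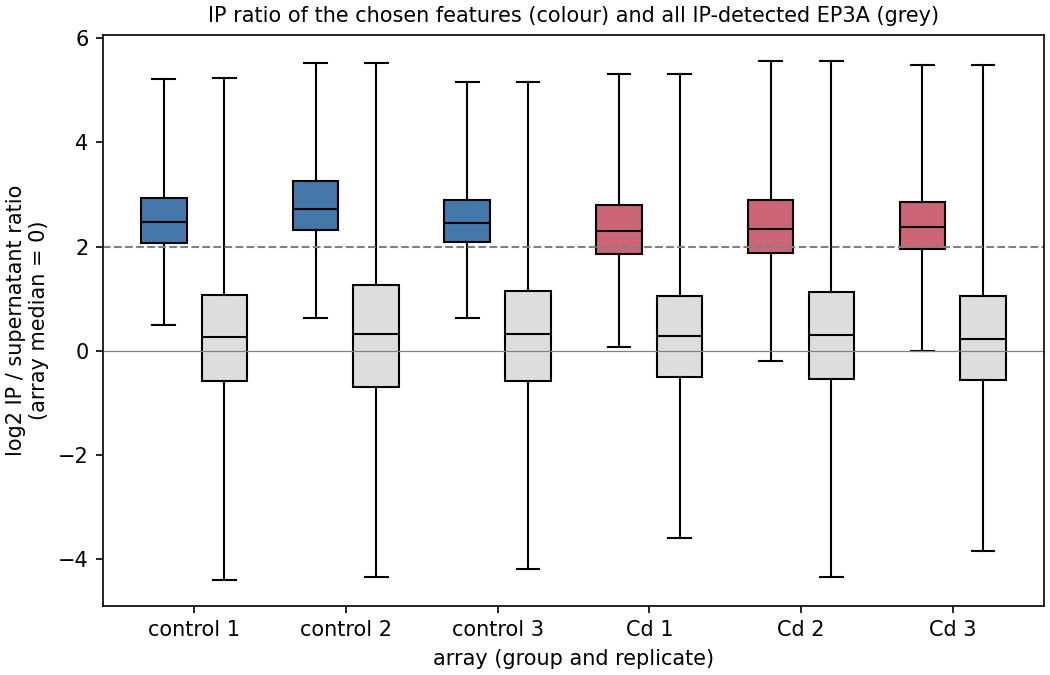
Log2 IP over supernatant ratio, with the array median at 0, on each of the 6 arrays. Coloured boxes hold the selected EP3A features (blue control, red Cd) and grey boxes all EP3A features whose IP channel was detected on the 3 control arrays; a box spans the quartiles, its line is the median and the whiskers reach the lowest and highest value. The coloured medians sit at 2.31 to 2.73 on every array and the grey medians at 0.23 to 0.32; the dashed line at 2 is the selection threshold for the control mean.

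Because the rule used the control arrays alone, the Cd arrays test the ratio on values that took no part in the choice. The dyes were placed the same way there, so this test cannot tell IP enrichment and a red-side dye preference apart. Of 1367 selected features that entered this test, 1363 (99.7%) had a Cd ratio above the array median by limma (Benjamini-Hochberg adjusted p under 0.05 over 31837 features), and 0 had a lower one. Of all features tested on the Cd arrays, 27.3% were called higher. Against the stricter mark of a log2 ratio of 1, 1144 (83.7%) of the selected features were called above it by limma's treat, where 7.26% of all tested features were. Among the 2667 tested EP3A features with a control mean of 1 to under 2, 484 (18.1%) passed that mark. The median standard error of a selected feature's Cd ratio was 0.21.

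The 4 tested selected features without a call on the Cd arrays had Cd means from 0.19 to 1.1. ASMM10EP3A122097883 was the lowest, with a Cd ratio of 0.19 (SE 0.21) and a limma adjusted p of 0.487. ASMM10EP3A113242580 had a Cd ratio of 0.44 (SE 0.24, limma adjusted p = 0.163). For ASMM10EP3A110081136 it was 0.51 (SE 0.19, limma adjusted p = 0.0673), and for ASMM10EP3A114271363 it was 1.1 (SE 0.38, limma adjusted p = 0.0551). All of these 4 features had Cd means above 0. The test asks for detection in at least 1 channel on 2 of 3 Cd arrays. For lack of this, ASMM10EP3A100156277, with Cd ratios of 0.07, 0.03 and 1.62, did not enter it and is not among the 4.

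Counted feature by feature, 986 of the 1369 selected features measured on all 3 Cd arrays (72.0%) again had a mean ratio of at least 2 there. Another 368 (26.9%) had a Cd mean of 1 to under 2, 15 (1.1%) of 0 to under 1, and 0 fell below 0. All 3 Cd values were at least 1 in 1292 features (94.4%) and at least 2 in 715 (52.2%). Only 2 features had any Cd value under 0. The other 4 selected features had a flagged spot on a Cd array. At the upper end, 297 features had a control mean of at least 3, and 241 had a Cd mean of at least 3.

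The Cd mean was below the control mean in 984 selected features (71.9%) and above it in 385 (28.1%). The difference, Cd minus control, had a median of -0.22 with quartiles of -0.49 and 0.04. It ranged from -1.93 to 1.65. In 69 features the Cd mean was lower by more than 1, and in 7 it was higher by more than 1. The Cd mean was a median 0.92 of the control mean. A set chosen for high control values falls on average when it is read again, with or without a treatment, so these differences describe the set and carry no test.

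**Figure D2:**
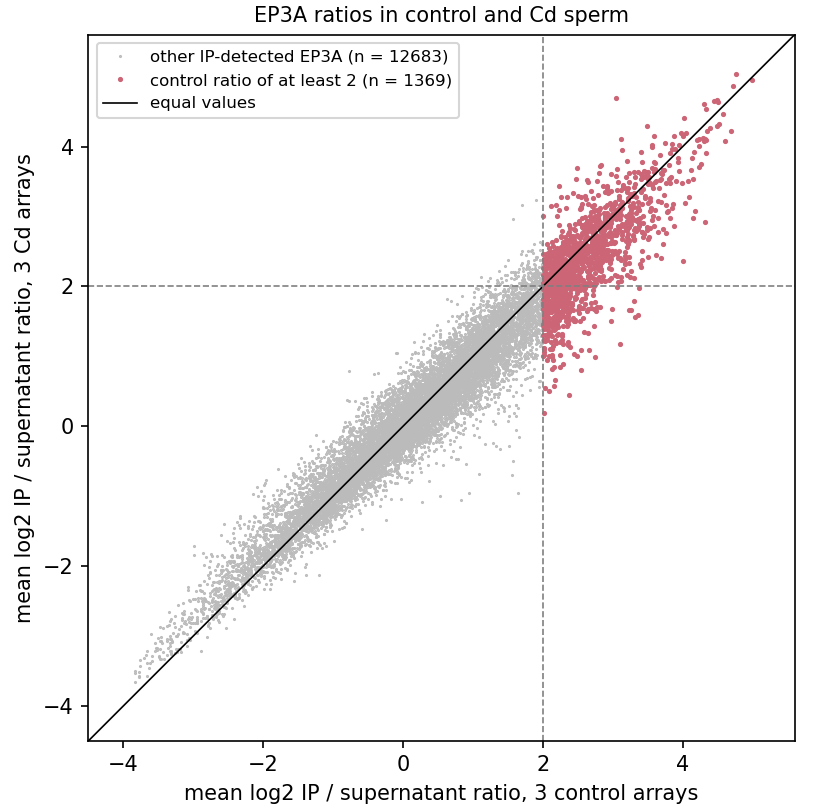
Mean log2 IP over supernatant ratio on the 3 control arrays (horizontal) against the 3 Cd arrays (vertical) for EP3A features whose IP channel was detected on the 3 control arrays. Each point is 1 feature measured on all 6 arrays, red for the selected features (control mean of at least 2, n = 1369), grey for the others; the solid line marks equal values and the dashed lines a ratio of 2. Of the red points 984 lie below the solid line, 385 above it, and 986 lie at or above the horizontal dashed line.

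To set the size of that fall, features were chosen by the same rule from 2 control arrays at a time, and the control array left out was read beside the Cd arrays. Over the 3 choices, the features had a median ratio of 2.50 on the arrays that chose them, 2.36 (SD 0.29 over the 3 choices) on the held-out control array and 2.29 on the Cd arrays. The fall was thus 0.14 with no change of group and 0.21 onto the Cd arrays. Read on the same features, the Cd medians were -0.07 from the held-out control medians on average (SD 0.21), and the 3 choices share arrays, so they are not independent. A ratio of at least 2 was kept by 68.4% of the chosen features on the held-out control array and by 66.4% on a Cd array.

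The sign of this difference depended on which control array was held out. With control replicate 1 held out, 1963 features were chosen and their median was 2.07 on that array, below the 2.21, 2.27 and 2.17 of the Cd arrays. The IP channel of control replicate 1 was detected for 75.3% of them, while the other held-out arrays had 99.5% and 100.0%. With control replicate 2 held out, 1287 features were chosen and their median was 2.64 on that array, above the 2.32, 2.36 and 2.41 of the Cd arrays. With control replicate 3 held out, 1432 features had a median of 2.38 on that array and of 2.28, 2.28 and 2.31 on the Cd arrays. The difference between Cd and held-out control medians was thus 0.15, -0.28 and -0.09 in turn. Over the 3 choices the held-out control medians spanned 2.07 to 2.64, and the Cd medians 2.17 to 2.41.

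**Figure D3:**
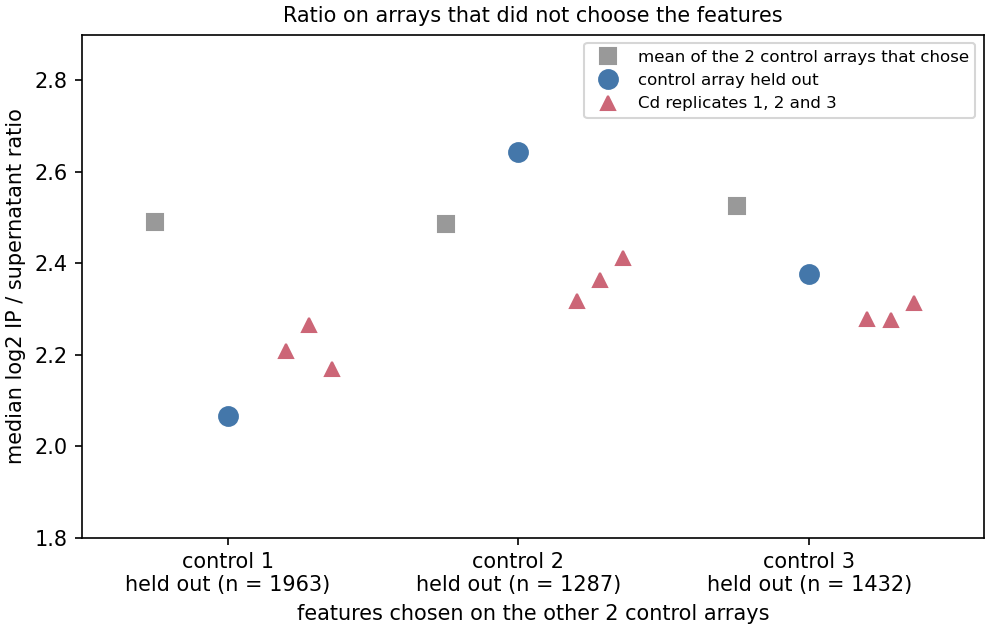
Median log2 IP over supernatant ratio of EP3A features chosen on 2 control arrays, for each control array held out in turn. Grey squares give the mean of the 2 arrays that chose the features, blue circles the held-out control array and red triangles the 3 Cd arrays. The blue circle lies below the triangles for control replicate 1 (2.07), above them for replicate 2 (2.64) and above them by a smaller step for replicate 3 (2.38).

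Array spread also differed between the arrays. The median absolute deviation of the log2 ratio, over the 12568 EP3A features detected in both channels on all arrays, was 1.1, 1.34 and 1.19 in control and 1.1, 1.17 and 1.12 in Cd sperm. Control replicate 2 had the widest spread and the highest median for the selected features. Control replicate 1 and Cd replicate 1 were alike in spread, with medians of 2.47 and 2.31 for the selected features. Control replicate 1 had the fewest IP-detected features, 28.2% of all features against 41.8% to 49.3% on the other arrays. When the ratios of every array were brought to a common spread, the Cd medians lay 0.10 above the held-out control medians (0.03 to 0.16 over the 3 choices), opposite in sign to the unscaled reading. Left unscaled but chosen on the Cd arrays instead, the features read higher in control than on the held-out Cd array, by 0.07.

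Within the selected set, bands farther from 0 in control sperm fell by similar steps. Between control ratios of 2 and 2.5 there were 687 features, with a median of 2.22 in control and 2.01 in Cd sperm. The 385 features from 2.5 to 3 went from 2.71 to 2.54, and the 185 from 3 to 3.5 from 3.22 to 2.96. The 112 features at 3.5 or more had medians of 3.82 and 3.59. Chosen on 2 control arrays, those in the highest band read 3.53 on the held-out control array and 3.51 on the Cd arrays. Those from 2 to 2.5 read 2.07 and 1.97, those from 2.5 to 3 read 2.49 and 2.45, and those from 3 to 3.5 read 2.99 and 2.88. Outside the selected set, the steps from the control median, a value that the choice of band shapes, were smaller. The band from 0 to 0.5 went from 0.25 to 0.21, and that from 0.5 to 1 from 0.73 to 0.66. The band from 1 to 1.5 went from 1.24 to 1.15, and that from 1.5 to 2 from 1.74 to 1.59. Chosen on 2 control arrays, the outside bands read 0.24, 0.69, 1.17 and 1.62 on the held-out control array. On the Cd arrays the same features read 0.21, 0.63, 1.09 and 1.53. Cd minus held-out control was thus -0.03 to -0.09 outside the set and -0.02 to -0.11 within it.

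On the Cd arrays, more of the ratio was kept by brighter features. The RNA level here is log2 of the summed IP and supernatant signals minus the 75th percentile of that sum on the array. Both channels were dye-normalized first, so the level is not an amount of input RNA. The selected features had median levels of 1.13, 1.15 and 1.03 in control and 0.90, 1.01 and 0.84 in Cd sperm, where all IP-detected EP3A features had 1.37 to 1.43. Their summed signal was lower through the supernatant, which the ratio rule selects to be low. In the IP channel their median control signals of 1240, 1850 and 1770 were above the 859, 1290 and 1360 of all IP-detected EP3A features. IP-detected EP3A features were cut into 4 level classes of equal size by their control level. Of the selected features, 465 lay in the dimmest class (13.0% of it), then 303 (8.48%), 311 (8.71%) and 294 (8.23%) in the brightest. Median control ratios in the 4 classes were alike, at 2.49, 2.51, 2.53 and 2.48. Cd medians were higher in brighter classes, at 2.14, 2.33, 2.38 and 2.53, and a Cd mean of at least 2 was kept by 57.6%, 72.9%, 77.8% and 88.1%.

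On control arrays that took no part in the choice, the order of the classes depended on the array. With control replicate 1 held out, the medians from the dimmest to the brightest class were 1.46, 2.11, 2.20 and 2.42. With replicate 2 held out they were 2.53, 2.80, 2.71 and 2.62, with no fall in the dimmest class from the 2.50 on the arrays that chose it. With replicate 3 held out they were 2.27, 2.36, 2.44 and 2.43. The average of the dimmest class, 2.09, thus rests on replicate 1, the array with the fewest IP-detected features, and the averages of the other classes were 2.42, 2.45 and 2.49. The Cd medians of the same features were higher in each brighter class in all 3 choices, from 1.88 to 2.46, from 2.16 to 2.52 and from 2.10 to 2.49. Over the 3 choices the difference between Cd and held-out control ran from -0.37 to 0.42 in the dimmest class and from -0.10 to 0.06 in the brightest.

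**Figure D4:**
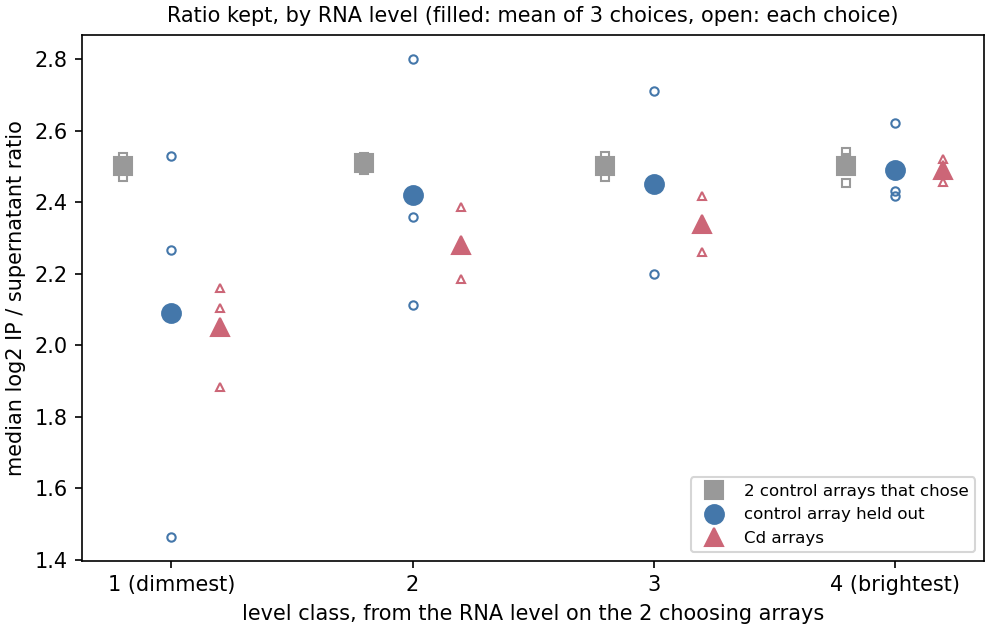
Median log2 IP over supernatant ratio of EP3A features chosen on 2 control arrays, by level class, from their RNA level on those arrays. Grey squares are the arrays that chose the features, blue circles the held-out control array and red triangles the mean of the Cd array medians; filled symbols average the 3 choices and open symbols are the single choices. The filled circle of the dimmest class, 2.09, averages open circles at 1.46, 2.53 and 2.27, while the filled symbols of the brightest class lie at 2.49 on both kinds of array.

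Channel detection differed between the fractions. The IP channel, fixed as detected on the control arrays by the rule, was detected on all 3 Cd arrays for 1358 selected features (98.9%), on 2 for 13 and on 1 for 2. The supernatant channel has no detection condition in the rule, but a high control ratio favours a low control supernatant, so its control counts are shaped by the choice. It was detected on all 3 control arrays for 772 features (56.2%), on 2 for 156, on 1 for 149 and on none for 296 (21.6%). On the Cd arrays the same counts were 1023 (74.5%), 140, 104 and 106 (7.72%). Both channels were detected on all 6 arrays for 763 features (55.6%), and 102 (7.43%) had a detected supernatant on no array.

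By array, the supernatant was detected for 61.2%, 64.6% and 76.5% of the selected features in control and for 88.5%, 82.2% and 81.1% in Cd sperm, and the groups did not overlap. The rule used the control side of this comparison too, so it carries no test. On control arrays that took no part in the choice, with replicates 1, 2 and 3 held out in turn, the supernatant of the chosen features was detected for 49.3%, 66.2% and 78.4%. The same features had shares of 66.6% to 75.1%, 81.1% to 87.9% and 82.4% to 88.7% on the Cd arrays, above the held-out control array in each choice. These shares include chosen features with a flagged spot on an array that did not choose them. Over all features of the arrays the supernatant shares also rose without overlap, from 35.1%, 39.0% and 44.0% to 49.8%, 45.6% and 47.4%. The part of this whole-array difference in the members' detection was not tested. Median supernatant signals of the selected features were 212, 276 and 310 in control and 325, 329 and 268 in Cd sperm, and median IP signals were 1240, 1850 and 1770 against 1660, 1730 and 1450. In both channels the ranges of the groups overlapped.

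Where the supernatant was not detected on any array of a group, the ratio there has only a lower bound. The bound sets the group's mean IP signal against, on each array, the higher of the feature's own supernatant signal and the dimmest detected supernatant signal. For the 296 such features in control sperm it ran from at least 1.35-fold to at least 17.1-fold, with a median of at least 3.02-fold, and it reached 4-fold in 86 of them. For the 106 such features in Cd sperm it ran from at least 1.11-fold to at least 15.1-fold, with a median of at least 3.76-fold, and 47 reached 4-fold. Of the 296, whose supernatant was undetected in control, the median nominal ratio was 2.75 in control and 2.37 in Cd sperm. Of the 106, whose supernatant was undetected in Cd sperm, it was 3.01 in control and 3.12 in Cd sperm. Each class was set by the supernatant of 1 group, which favours a high ratio in that group, so no group difference is read from them. The 772 features with a detected supernatant on all control arrays had 2.42 and 2.36, and 76.9% of them kept a Cd mean of at least 2.

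The difference between the groups was also fitted over all features, as a description for these members. For the ratio, 1103 selected features entered the fit and limma called 0 of them at an adjusted p under 0.05 (smallest 0.555), beside 0.0042% of the 23788 features fitted. At an unadjusted p under 0.05, 104 selected features (9.43%) were lower in Cd sperm, beside 2.38% of all features, and 4 (0.363%) were higher, beside 2.64%. The 3 Cd values lay below the 3 control values in 151 selected features (13.7%) and above them in 17 (1.54%), where the shares over all features were 5.15% and 4.9%. The rule used the control side of this contrast, so nothing is read from these shares.

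The RNA level of the selected features had a median Cd minus control difference of -0.201, against a median of -0.001 over all features fitted. By channel, scaled to the 75th percentile, the median difference was -0.27 in the IP signal and -0.03 in the supernatant signal. Limma called 0 of 1369 selected features at an adjusted p under 0.05 (smallest 0.417), beside 0.0% of 30518 features. At an unadjusted p under 0.05, 128 (9.35%) were lower, beside 4.08% of all features, and 16 (1.17%) were higher, beside 6.18%. A high IP signal in control was part of the choice, so this too is a description.

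The 6 features with the highest control means had Cd means of 4.08 to 5.04, nominal where the supernatant was not detected. ASMM10EP3A100081964 had the highest control mean, with ratios of 4.84, 5.33 and 4.80 in control and 4.71, 4.93 and 5.20 in Cd sperm. Its means were 4.99 (SD 0.30, n = 3) and 4.95 (SD 0.24, n = 3), and the groups overlapped. The IP signals behind them were 7757, 11178 and 12366 in control and 11344, 11455 and 10625 in Cd sperm, while its supernatant lay between 265 and 438 and was detected on every array. On the Cd arrays alone its limma adjusted p was 0.000715 (SE 0.19). This was the smallest value among the selected features and was shared by others, ASMM10EP3A107093703 and ASMM10EP3A100180827 among them.

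ASMM10EP3A107093703 had the highest Cd mean of the set. Its ratios were 5.23, 4.42 and 4.63 in control and 5.28, 4.93 and 4.91 in Cd sperm, with means of 4.76 (SD 0.42) and 5.04 (SD 0.21, n = 3 each). ASMM10EP3A100180827 had 4.99, 4.56 and 4.61 against 4.81, 4.77 and 5.01, on IP signals of 37053 to 47237. ASMM10EP3A118559534, brighter again with IP signals of 48427 to 104329, had ratios of 4.29, 4.67 and 4.53 against 5.00, 4.67 and 4.33. In each of these 3 features the control and Cd values overlapped, and both channels were detected on all 6 arrays.

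ASMM10EP3A101504297 had a control mean of 4.69 (SD 0.60) and a Cd mean of 4.22 (SD 0.49, n = 3 each), with single values from 4.30 to 5.38 and from 3.88 to 4.78 that overlapped. ASMM10EP3A111727647 read 4.71, 4.62 and 4.49 in control and 4.05, 3.65 and 4.53 in Cd sperm, but its supernatant was detected on no array, so the ratio is at least 6.38-fold in control and at least 7.96-fold in Cd sperm. ASMM10EP3A117395923 had a control mean of 4.58 (SD 0.65) and Cd values of 3.18, 4.76 and 5.48, the widest Cd range of these 3 features. Its supernatant was detected on no control array and on 1 Cd array. ASMM10EP3A117058160 had control ratios of 3.41, 5.33 and 4.58 and Cd ratios of 4.92, 4.52 and 4.52, and its control bound of at least 17.1-fold was the highest in the set.

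For 1 dim feature among the highest Cd ratios, the group values can only be bounded. ASMM10EP3A121080773 had nominal ratios of 2.89, 3.15 and 3.12 in control and 5.05, 4.57 and 4.47 in Cd sperm. Its IP signals were 258, 294 and 484 in control and 816, 552 and 952 in Cd sperm. The supernatant of this feature, 24 to 55 on the 6 arrays, was detected on none. The bounds are therefore at least 2.41-fold in control and at least 7.62-fold in Cd sperm. These lower bounds give no order of the groups, and the feature did not enter the fit of the group difference, which asks for detection in both channels.

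At the other end, the lowest Cd ratios belonged mostly to dim features. They were named for low Cd values in a set chosen for high control values. Overlap of their groups and the p of their group difference are therefore a description and carry no test. ASMM10EP3A122097883 had ratios of 2.84, 1.37 and 1.84 in control and 0.24, -0.19 and 0.51 in Cd sperm, with IP signals of 399 to 579 in control and 190 to 313 in Cd sperm. Its groups did not overlap, and the unadjusted limma p of the group difference, 0.00131, was 0.729 after adjustment. ASMM10EP3A113242580 was tight in control, at 2.32, 2.53 and 2.28, and read 0.98, 0.22 and 0.13 in Cd sperm. Its supernatant was detected on no control array, where the bound is at least 2.84-fold, and on 2 Cd arrays. ASMM10EP3A110081136 had 1.35, 2.75 and 2.16 in control and 0.47, 0.30 and 0.75 in Cd sperm, again without overlap. Its Cd ratio passed the limma threshold with normexp (adjusted p = 0.0411) and with detection asked in both channels (adjusted p = 0.0438).

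ASMM10EP3A126797900 owed its control mean of 2.03 (SD 1.12) to 1 array, with ratios of 1.30, 3.32 and 1.47, and read 0.61, 0.45 and 0.58 in Cd sperm. ASMM10EP3A100049272 had control ratios of 2.95, 0.64 and 2.93 and Cd ratios of 0.83, 0.45 and 0.71, so control replicate 2 fell among the Cd values. On the Cd arrays both stayed above the array median by limma, with adjusted p-values of 0.0431 and 0.0278; each lost that call with normexp and when any 1 Cd array was left out, where the adjusted p-values ran from 0.0533 to 0.191. ASMM10EP3A100156277 varied most in signal. Its IP signal was 685, 156 and 4275 in control and 19, 21 and 19970 in Cd sperm. The IP channel of this feature was detected on all 3 control arrays and, of the Cd arrays, on replicate 3 only. Its ratios were 0.70, 2.27 and 3.52 against 0.07, 0.03 and 1.62.

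**Figure D5:**
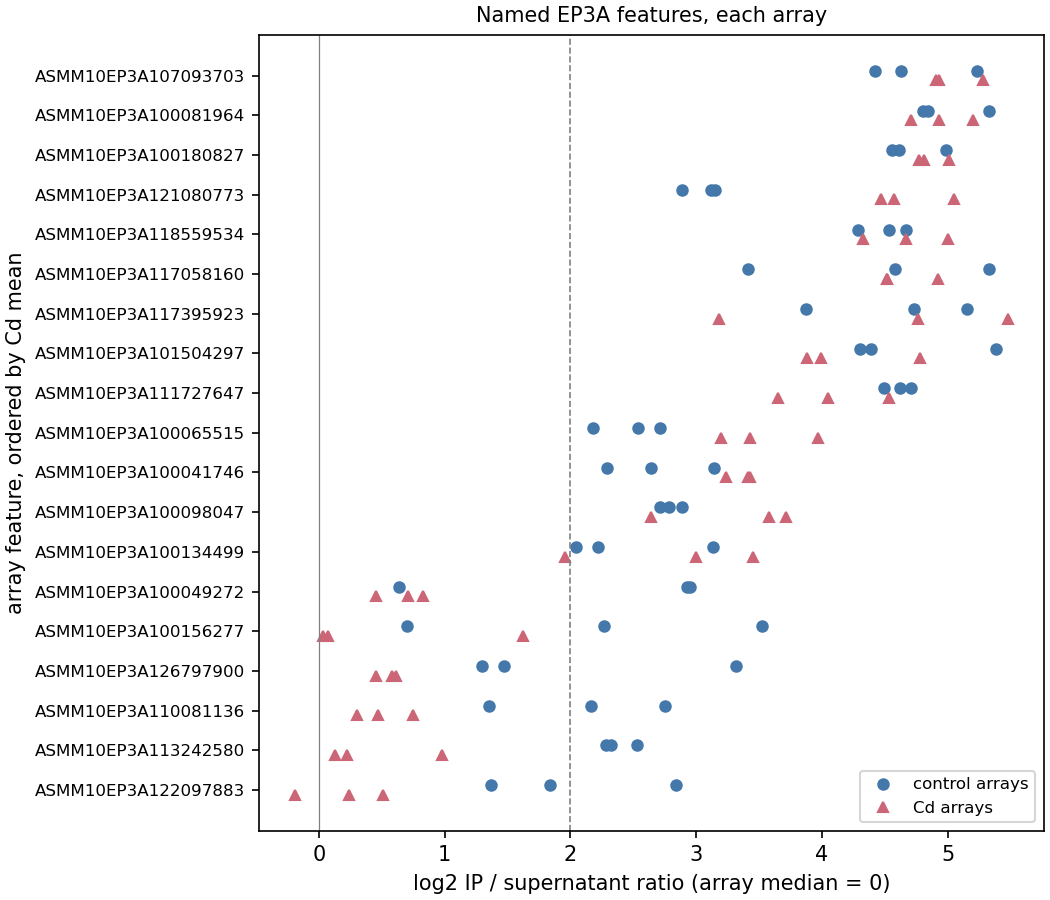
Log2 IP over supernatant ratio, with the array median at 0, of the features named for the highest control, highest Cd, lowest Cd or brightest values. Each symbol is 1 array, blue circles for control and red triangles for Cd; rows are ordered by Cd mean, and the dashed line marks a ratio of 2. The groups overlap in the features with control means above 4, while the lowest rows have Cd values from -0.19 to 1.62.

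The 4 brightest selected features with both channels detected throughout had a higher mean ratio in Cd than in control sperm. Saturation was not part of the spot filter. ASMM10EP3A100065515 had the highest IP signals, 253238, 345386 and 329078 in control and 689414, 549774 and 504184 in Cd sperm, with supernatant signals of 44281 to 56099. Its ratios were 2.18, 2.71 and 2.54 in control and 3.97, 3.43 and 3.20 in Cd sperm, without overlap. The difference was 1.06 (SE 0.29), with an unadjusted limma p of 0.00581 and an adjusted p of 0.959.

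ASMM10EP3A100041746 had 2.64, 2.29 and 3.14 in control and 3.43, 3.41 and 3.24 in Cd sperm, also without overlap. ASMM10EP3A100134499 had 2.22, 3.13 and 2.04 against 3.00, 1.96 and 3.45, and ASMM10EP3A100098047 had 2.71, 2.89 and 2.78 against 3.58, 2.64 and 3.71. In the last 2 features the groups overlapped. The adjusted limma p of the group difference was 0.959 to 0.967 in these 4 features.

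At the threshold, the features just inside and just outside looked alike. ASMM10EP3A118610700, ASMM10EP3A105026108 and ASMM10EP3A116929230 had control means of 2.00 and entered, with Cd means of 1.00, 2.04 and 3.01. ASMM10EP3A114829909, ASMM10EP3A111723494 and ASMM10EP3A126529852 also rounded to 2.00 but fell just short, with Cd means of 1.1, 1.83 and 2.05. The control SDs of these 6 features ran from 0.16 to 1.01.

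Few selected features had a detected neighbour, 133 of 1373 (9.69%), where a neighbour is an EP3A feature with the next or previous identifier number. The meaning of the numbering is not stated in the files used. Among IP-detected EP3A features there were 636 such pairs, and 116 held a selected feature. Of the 142 neighbours of selected features counted over those pairs, 52 (36.6%) were selected themselves, where 9.61% of all IP-detected EP3A features were. The neighbours' median ratio was 1.39 in control and 1.41 in Cd sperm, against 0.31 and 0.27 for all IP-detected EP3A features. Of them 102 (71.8%) lay above 0 in control, where 59.8% of all IP-detected EP3A features did, 40 lay below 0, and 4 at -2 or lower. The 142 neighbours include the 52 selected ones, whose control mean is at least 2 by the rule. The neighbours' median and their share above 0 are therefore raised by the choice, and nothing is read from them.

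The selected pairs numbered 26, and no run was longer than 2. Members of a pair sat a median of 135 spot positions apart on the slide. As examples picked after their values were seen, ASMM10EP3A100159905 and ASMM10EP3A100159906 had Cd means of 3.42 (SD 0.25) and 3.10 (SD 0.16), from control means of 3.30 (SD 0.17) and 2.23 (SD 1.06). ASMM10EP3A116171973 and ASMM10EP3A116171974 had control means of 3.14 and 3.59 and Cd means of 3.95 and 4.15. The bright ASMM10EP3A100065515 was paired with ASMM10EP3A100065514, whose means were 2.54 (SD 0.61) in control and 3.27 (SD 0.59) in Cd sperm. Whether pair members read overlapping RNA was not tested, and they are not counted as independent. Across the 636 pairs the Pearson correlation of the ratios was 0.41 in control and 0.43 in Cd sperm, a description over features that share arrays.

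The share selected was similar over the slide. Selected features made up 9.73%, 9.04%, 10.4% and 9.35% of the IP-detected EP3A features in the 4 quadrants. By the same rule, 103 of 1800 IP-detected EP3B features (5.72%), 12 of 660 SM features (1.82%) and 8 of 28 catalogue probes (28.6%) qualified, and their median ratios went from 2.52 to 2.37, from 2.63 to 2.12 and from 2.96 to 2.40. On the opposite side, the 1593 EP3A features with a control mean of -2 or lower had a mean array median of -2.54 (SD 0.07, n = 3) in control and -2.21 (SD 0.12, n = 3) in Cd sperm. Chosen on 2 control arrays, such features read -2.36 on the held-out control array and -2.16 on the Cd arrays. The step towards 0 onto the Cd arrays, beyond the held-out control, was thus 0.20 on the supernatant side (0.09 to 0.26 over 3 choices). It averaged 0.07 on the IP side, where Cd minus held-out control ran from -0.28 to 0.15 and so changed sign. The difference between the sides was not tested.

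Chosen on the Cd arrays by the same rule, 1422 EP3A features qualified, and 985 were in both sets. The shared features were 71.7% of those selected in control and 69.3% of those selected in Cd sperm. The Cd-selected features had a median of 2.47 in both groups, and 77.9% of them had a control mean of at least 2.

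The size of the ratio depended on the processing. With the median spot signals corrected by normexp with an offset of 50, the selected features had a median ratio of 1.05 in control and 1.17 in Cd sperm. These ratios were centred on each array's median but not dye-normalized. Background correction, offset and dye normalization thus changed together, and their parts were not tested. All 1373 stayed above 0 in both groups. Only 165 EP3A features then met the rule, 160 of them in the selected set, with a median IP signal of 23000 against 1650. Before dye normalization the background-subtracted supernatant signal of the selected features was a median of 13.1 to 18.6 in control and at most 27.1 in Cd sperm, smaller than the offset. The median Cd minus control difference changed sign with normexp, from -0.21 to 0.13 over the 1103 fitted features. What held under both ways of processing was the side of the ratio, not its size.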

How the data were processed

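Selected features and lists were chosen with earlier results of these data known. The authors deposited scanner tables of spot intensity from Agilent Feature Extraction 11.0.1.1, background-subtracted and dye-normalized (linear and lowess), per the file headers. Deposited log10 red over green ratios served as a check. The series table of the authors, also deposited, is on a log2 scale, equal to the log2 IP signal minus 1 constant per array, and served as an alternative for the level. Each spot's detection flags (well above background, outlier) are deposited as 0 or 1. Control and outlier-flagged spots were left out, which removed 5 features that otherwise met the rule. Ratios were log2 of red over green, centred on each array's median. Features entered the Cd test when detected in at least 1 channel on 2 of 3 Cd arrays, the ratio contrast in both channels on 3 of 6 arrays, and the level contrast in 1 channel on 3 of 6. Tests used limma 3.58.1 in R 4.3.3 (lmFit, eBayes, treat; 2-sided), checked on simulated data; plots used matplotlib 3.10.9 in Python 3.11.15. The number of arrays limits the precision. Features named were the 6 highest in control, the 6 highest and 6 lowest in Cd sperm, the 4 brightest, and 3 on each side of the threshold. Replicate numbers did not pair the arrays (correlations of deviations -0.12 to -0.05 for the ratio, -0.42 to 0.43 for the level). A block for scan could not be fitted. Normexp used median signals, since no mean signal column was used, and its ratios were median-centred without dye normalization.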

Additional observations from a re-analysis of the deposited data

How the results depend on the processing

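With 3 arrays a group and no exchange of dyes, a small shift of a whole array cannot be told apart from a group difference, and dim supernatant signals limit the size of a ratio. Common spread was chosen as an alternative after seeing the data. The count of selected features above the array median on the Cd arrays, 1363, was 1292 to 1364 under the other filters, centrings, loess, normexp and common spread, save 1157 of 1159 with detection asked in both channels and 1144 against a log2 ratio of 1, and 1342 to 1359 without 1 Cd array. Other rules of choice gave 3851 (ratio of at least 1), 296 (at least 3), 768 (supernatant also detected) and 159 (normexp), because they take more or fewer features. The share with a Cd mean of at least 2, 72.0%, became 18.3% with normexp, 75.5% with common spread, 76.8% with the supernatant detected and 93.7% chosen with normexp, and was 69.5% to 72.2% without 1 Cd array. The median ratio difference, -0.205, reversed to 0.133 with normexp, was -0.041 with common spread, and ranged from -0.276 to -0.098 without 1 array; without control replicate 2 it was -0.098. The median level difference, -0.201, was -0.006 with normexp, -0.268 in the IP channel, -0.033 in the supernatant and -0.018 in the authors' deposited table, where all features had 0.287. With no filter it stayed at -0.201 while all features had -0.254. The held-out difference, -0.073, reversed to 0.281 with normexp and 0.096 with common spread, and ran from -0.28 to 0.147 by the control array held out. On the supernatant side, where ratios are negative, it was 0.2, likewise a step towards 0. Beyond the causes given, the cause was not tested. With the replicate block, limma called 0 selected features for the ratio and 0 for the level, with medians of -0.205 and -0.201. Of 205 values of the 21 named selected features tested on the Cd arrays, 193 stayed on their side of the threshold, called or not, 10 lost a call, 2 gained one and 0 changed sign. ASMM10EP3A100156277 did not enter that test.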
